A study of Mus musculus with 2 samples.

Results

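The stathmins Stmn1, Stmn2, Stmn3 and Stmn4, the tubulins Tubb3, Tubb2a, Tubb2b and Tuba1a, doublecortin (Dcx) and Map1b were followed as a set of microtubule genes of young neurons. These 10 genes, of 32285 in the count tables, were taken by symbol, and their level was read in each cell class of each library. Single-cell RNA was captured from the 5′ end of transcripts in droplets (10x Genomics). One library came from 4-week-old mice with the L389P change in Crlf3, a cytokine receptor-like gene, and the other from 4-week-old wild-type mice. Each pooled 4 hippocampi of 2 mice, with no treatment, and live cells were sorted after dissociation and removal of debris and myelin. The labels do not say whether the mutation was heterozygous, nor the sex of the mice. Each library held both Xist-positive and Y-positive cells, in unlike proportions.

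Microtubules are polymers of α- and β-tubulin pairs, and mammals hold several genes for each. Stathmins bind free tubulin pairs and favour the shortening of microtubules, while Dcx and Map1b bind the polymer and stabilise it. In the dentate gyrus of the hippocampus, dividing progenitors give rise to neuroblasts that migrate and grow neurites. Dcx and the β-tubulin Tubb3 are the usual markers of these young cells. Mutations of Tuba1a, Tubb2b, Tubb3 and Dcx cause disorders of neuronal migration in humans.

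After filtering, the mutant library held 5276 cells and the wild-type library 7098 cells, with a median of 7385 and 6193 UMIs (counted molecules) per cell. The libraries shared 64 barcodes. Each cell was placed in a class by how many marker genes of each cell type it held, and none of the 10 genes was among the markers. A class name therefore means resemblance to that type. Cycling progenitors (51 mutant and 39 wild-type cells) held at least 5 of 19 neurogenic markers and at least 5 of 13 cell cycle markers. Granule neuroblasts (110 and 90 cells) held the neurogenic markers, at most 1 cell cycle marker, at most 1 Dlx-lineage marker and at least 3 of 8 markers of the granule cell lineage. They were split into early cells without a UMI of Neurod2 or Neurod6 (37 and 35) and late cells with one (73 and 55). Dlx neuroblasts (27 and 17 cells) held at least 4 of 10 markers of the inhibitory lineage. Of the progenitors, 38 of 51 mutant and 34 of 39 wild-type cells held at most 1 of these Dlx-lineage markers. The progenitor class may thus mix lineages, in unlike shares in the libraries. Another 31 mutant and 26 wild-type neurogenic cells met no single stage and were not used. Progenitors had a median of 16705 UMIs per cell in the mutant and 13376 in the wild-type library, and granule neuroblasts 10421.5 and 8512.5.

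Levels are CPM, a gene's UMIs in all cells of a class divided by the class total and scaled to 1000000. CPM is thus a share of the RNA counted in a class and not an amount per cell. Progenitors held more UMIs per cell than granule neuroblasts, so ratios of CPM between them are not ratios of RNA per cell. For log2 ratios 10 CPM were added to both levels. Each genotype is 1 library, so there is no replicate and no test. The 95% intervals hold counting error alone and leave out any spread between mice, dissociations or sorts. A gene was counted as higher or lower at 1.5 times, among genes of at least 50 CPM and 30 UMIs on the higher side. CPM values of different genes are not ranked against each other. Shares of tubulin UMIs are compared between classes only. The 1.5 times is a ratio of CPM without the added 10.

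The CPM of 9 of the 10 genes was higher in granule neuroblasts than in cycling progenitors, by at least 1.5 times, in each library. Of all measured genes, 23.6% were that much higher in the mutant and 27.4% in the wild-type library. The median log2 ratio of the 10 genes was 2.16 in the mutant and 1.87 in the wild-type library, against 0.05 and 0.13 for all measured genes. The exception was Stmn1. The largest ratios belonged to Stmn2 and Stmn4 and the smallest of the 9 to Stmn3 and Tuba1a. Granule neuroblasts were chosen by granule-lineage markers and few cell cycle markers, and progenitors by cell cycle markers. Genes that go with those markers can differ through the gate, and its part in these ratios was not tested.

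Stmn1 (chromosome 4, positions 134468320 to 134473843), the stathmin of dividing and many other cells, stood at 2407 CPM in mutant and 1938 CPM in wild-type granule neuroblasts, against 2337 CPM in mutant and 2177 CPM in wild-type progenitors. Its log2 ratio of granule neuroblasts over progenitors was 0.04 in the mutant (interval -0.04 to 0.13) and -0.17 in the wild-type library (-0.28 to -0.06). Stmn1 thus had nearly the same CPM in the 2 classes, with a UMI in 100% of mutant and 98.9% of wild-type granule neuroblasts. Its counts may be incomplete, which was not tested. Of the 100-base windows in the first 500 bases of its transcript, 43.4% also occur in a processed pseudogene outside the count table.

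Stmn2 (chromosome 3, positions 8509360 to 8561606), a membrane-anchored stathmin of growth cones, had the largest ratio of the set in each library. It stood at 635 CPM in mutant and 505 CPM in wild-type granule neuroblasts, against 53.0 CPM in mutant and 13.3 CPM in wild-type progenitors. These progenitor levels rest on 45 and 7 UMIs, and in the mutant library 3 of the 51 cells held 68.9% of them. The log2 ratio was 3.36 (2.99 to 3.73) in the mutant and 4.46 (3.84 to 5.09) in the wild-type library. Over the alternative settings given below it ran from 2.90 to 5.76 in the mutant and from 3.17 to 5.14 in the wild-type library.

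Stmn4 (chromosome 14, positions 66344296 to 66361680), a neural stathmin, had a like pattern. Its level was 275 CPM in mutant and 288 CPM in wild-type granule neuroblasts, against 28.2 CPM in mutant and 20.9 CPM in wild-type progenitors. Stmn3 (chromosome 2, positions 181306459 to 181314500), another neural stathmin, was already clear in progenitors. It stood at 609 CPM in mutant and 534 CPM in wild-type granule neuroblasts, against 307 CPM in mutant and 341 CPM in wild-type progenitors, a log2 ratio of 0.96 and 0.63. In single progenitors, Stmn3 had a UMI in 98.0% of mutant and 97.4% of wild-type cells, while Stmn4 had one in 17.6% and 15.4%.

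**Figure D1:**
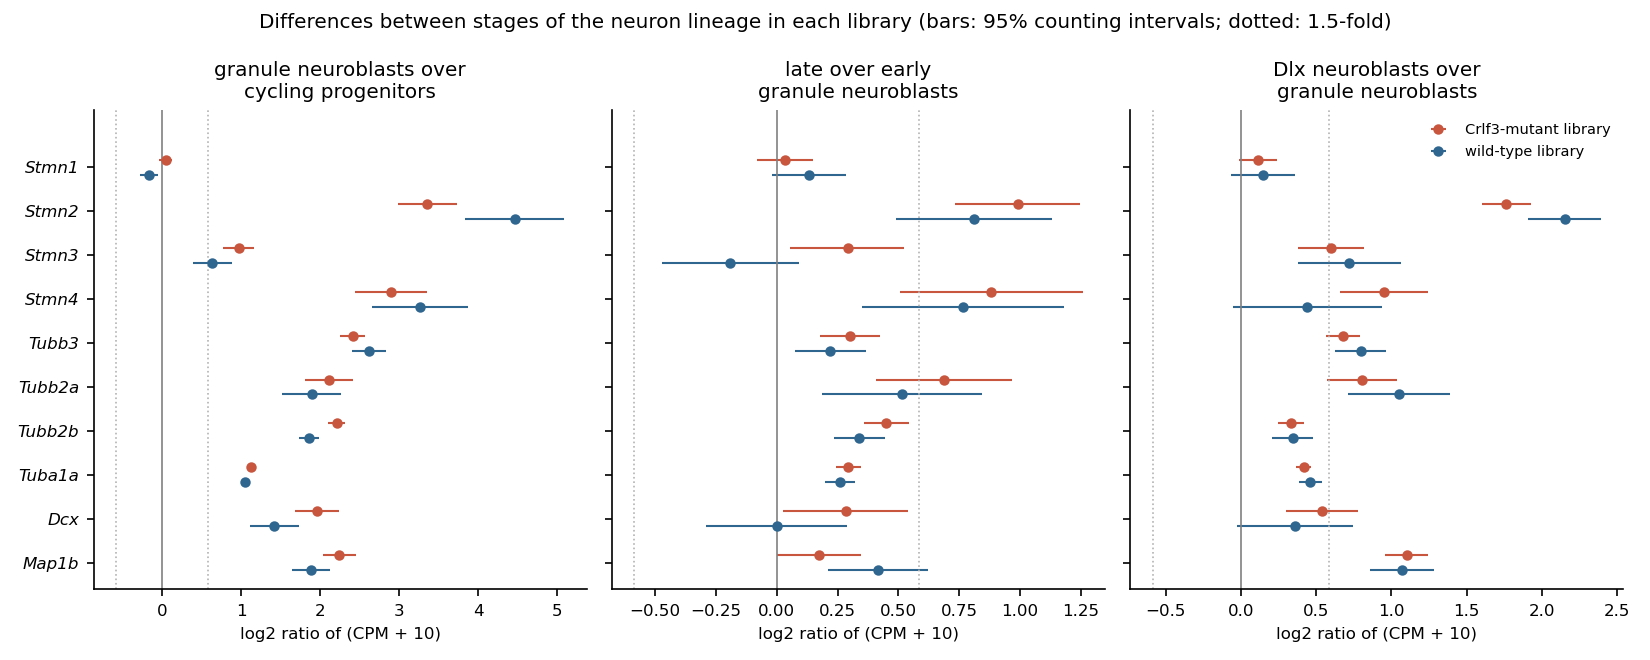
Log2 ratio of (CPM + 10) of each gene between stages, with 95% counting intervals, for the mutant library (red, upper point) and the wild-type library (blue, lower point). In the left panel 9 of the 10 genes lie past the dotted line of 1.5 times in both libraries, and Stmn1 lies at 0.04 and -0.17.

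Among the tubulins, Tubb3 (chromosome 8, positions 123411424 to 123422015), the β-tubulin of neurons, stood at 2248 CPM in mutant and 2181 CPM in wild-type granule neuroblasts, against 414 CPM in mutant and 347 CPM in wild-type progenitors. That is 5.43 times the progenitor level in the mutant and 6.29 times in the wild-type library. The neighbouring genes Tubb2a (chromosome 13, positions 34074274 to 34078007) and Tubb2b (chromosome 13, positions 34126748 to 34130466) encode further β-tubulins. Tubb2b stood at 4357 CPM in mutant and 4244 CPM in wild-type granule neuroblasts, against 934 CPM in mutant and 1162 CPM in wild-type progenitors. Tubb2a stood at 486 CPM in mutant and 444 CPM in wild-type granule neuroblasts, against 105 CPM in mutant and 112 CPM in wild-type progenitors. The ratio of granule neuroblasts over progenitors was 4.66 for Tubb2b and 4.64 for Tubb2a in the mutant and 3.65 and 3.95 in the wild-type library, below that of Tubb3 in each. Tuba1a (chromosome 15, positions 98949837 to 98953703), an α-tubulin of developing neurons, stood at 13511 CPM in mutant and 12876 CPM in wild-type granule neuroblasts, against 6192 CPM in mutant and 6203 CPM in wild-type progenitors. Its log2 ratio was 1.12 in the mutant (1.08 to 1.17) and 1.05 in the wild-type library (0.99 to 1.11), the tightest intervals of the set.

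Tubulin genes are near copies of each other, which matters for counting them. Over the coding sequence, Tubb2a and Tubb2b were 96.5% identical and Tuba1a and Tuba1b 98.3%, while the stathmins Stmn1 and Stmn2 were 57.0% identical. The first 60 coding bases show where reads from the 5′ end can separate the β-tubulin copies (GENCODE M21 transcripts, GRCm38, 5′ to 3′ on the coding strand). Capitals mark bases that differ from Tubb2a.
Tubb2a: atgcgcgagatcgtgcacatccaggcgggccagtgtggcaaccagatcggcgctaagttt
Tubb2b: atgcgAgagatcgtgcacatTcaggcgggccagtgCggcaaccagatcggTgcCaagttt
Tubb3: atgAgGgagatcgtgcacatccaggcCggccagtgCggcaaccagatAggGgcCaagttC
Tubb2b differed from Tubb2a at 5 of these 60 bases and Tubb3 at 8, and no 100-base window in the first 500 transcript bases of Tubb2a or Tubb3 occurs in another gene. For Tubb2b, 8.73% of the windows occur in the pseudogene Tubb2a-ps2. Of the Tuba1a windows, 62.1% occur in the gene model Gm49450, outside the count table. Transcripts of Tuba1b and of Tuba1c, both in the count table, each hold 31.7% of them. The level of Tuba1a is thus less certain than that of these β-tubulins.

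Dcx (chromosome X, positions 143855842 to 143933311), which binds and bundles microtubules in migrating neurons, stood at 509 CPM in mutant and 510 CPM in wild-type granule neuroblasts, against 124 CPM in mutant and 185 CPM in wild-type progenitors. The log2 ratio was 1.959 (1.68 to 2.24) in the mutant and 1.42 (1.11 to 1.73) in the wild-type library. Map1b (chromosome 13, positions 99421446 to 99516540), a microtubule-binding protein of growing axons, stood at 1115 CPM in mutant and 1133 CPM in wild-type granule neuroblasts, against 228 CPM in mutant and 299 CPM in wild-type progenitors. The granule levels of both genes lay close together in the libraries, and both progenitor levels were lower in the mutant library.

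Within granule neuroblasts, late cells differed less from early cells. Stmn2, Stmn4 and Tubb2a were at least 1.5 times higher in late cells in the mutant library and Stmn2 and Stmn4 in the wild-type library, against 9.64% and 11.8% of measured genes. Stmn2 stood at 766 CPM in mutant and 609 CPM in wild-type late cells, against 381 CPM in mutant and 343 CPM in wild-type early cells. Stmn4 stood at 327 CPM in mutant and 345 CPM in wild-type late cells, against 173 CPM in mutant and 199 CPM in wild-type early cells. None of the 10 was 1.5 times lower in either library (3.74% and 3.13% of genes were). The split uses 1 UMI of a pair of genes and can follow depth. Median depth was 10473 UMIs in mutant and 8683 in wild-type late cells, against 10377 in mutant and 8139 in wild-type early cells, and its part in these ratios was not tested.

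Dlx neuroblasts had a still higher CPM of several of these genes. In the mutant library 6 genes and in the wild-type library 5 were at least 1.5 times above granule neuroblasts, against 8.27% and 4.23% of measured genes. Stmn2 stood out, with 2179 CPM in mutant and 2279 CPM in wild-type Dlx neuroblasts, against 635 CPM in mutant and 505 CPM in wild-type granule neuroblasts. Map1b stood at 2406 CPM in mutant and 2389 CPM in wild-type Dlx neuroblasts, against 1115 CPM in mutant and 1133 CPM in wild-type granule neuroblasts. Stmn3, Tubb3 and Tubb2a were also past 1.5 times in both libraries, with log2 ratios of 0.60 to 0.80 in the mutant and 0.72 to 1.05 in the wild-type library. Stmn4 was past it in the mutant library, at 0.95, and stood at 0.44 in the wild-type library, where Dlx cells held 36 UMIs of it. Stmn1, Tubb2b, Tuba1a and Dcx stayed under 1.5 times in both. All 10 ratios were above 0. The median of all measured genes was -0.19 in the mutant and -0.43 in the wild-type library. Dlx neuroblasts held 233608 UMIs in the mutant and 91258 in the wild-type library, against 1103057 and 750254 in granule neuroblasts. A gene higher in Dlx neuroblasts thus needed a higher CPM to pass the UMI filter than one higher in granule neuroblasts. This favours measured genes that were lower in Dlx neuroblasts, so these medians and shares of measured genes cannot serve as a background for the 10 genes.

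In single cells the genes differed in how evenly they were spread. Thinned to 2000 UMIs each, 92.7% of mutant and 95.6% of wild-type granule neuroblasts held a UMI of Tubb3, against 43.1% and 28.2% of progenitors. For Dcx the shares were 58.2% (48.4 to 67.5, exact Clopper-Pearson) of mutant and 60% (49.1 to 70.2) of wild-type granule neuroblasts, against 23.5% and 33.3% of progenitors. Free RNA would give such UMIs to any cell. Of thinned microglia, which should lack Dcx, 0.0624% held one in the mutant library, and in the wild-type library 0 of 4351 did, which allows up to 0.0847%. Unthinned microglia had a median of 7730 UMIs in the mutant and 6335.5 in the wild-type library. Stmn2 was the more uneven gene. A UMI of it was found in 50.9% of mutant and 54.4% of wild-type granule neuroblasts after thinning, and unthinned its median was 4.45 and 4.73 UMIs per 10000, with an upper quartile of 10.8 and 8.46.

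**Figure D2:**
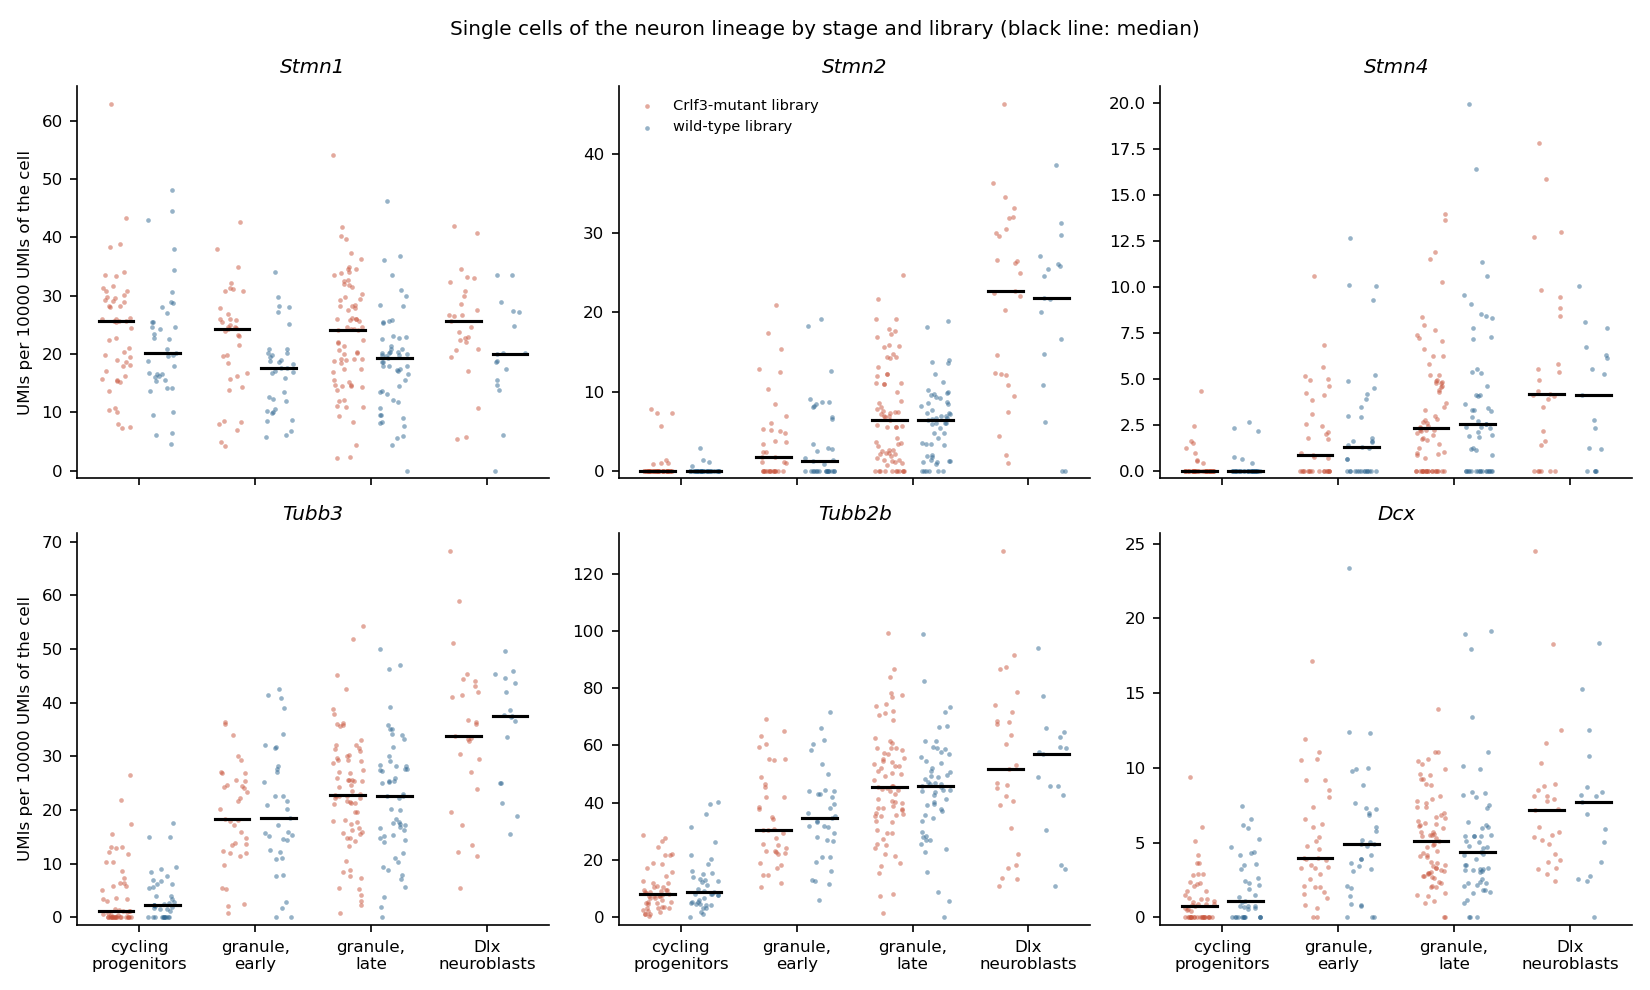
UMIs of 6 of the genes per 10000 UMIs of each cell, by stage along the x axis, with the mutant library in red at the left and the wild-type library in blue at the right of each stage. Black lines are medians. Stmn1 medians lie at 25.7 in mutant and 20.2 in wild-type progenitors, while the Stmn2 and Stmn4 medians are 0 in progenitors of both.

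Across granule neuroblasts, Tubb3, Tubb2b and Tuba1a varied together from cell to cell, and Tubb2a less so. Spearman's rho of CPM between Tubb2b and Tuba1a was 0.80 over 110 mutant cells and 0.73 over 90 wild-type cells, and between Tubb3 and Tuba1a 0.75 and 0.69. Tubb2a had rho of 0.38 to 0.51 with the other 3 tubulins in the mutant and 0.13 to 0.30 in the wild-type library. The median over all 45 pairs of the genes was 0.34 in the mutant and 0.20 in the wild-type library. The cells of a library share its droplet run and differ in depth, and genes with few UMIs give low values. Stmn1 went with Tuba1a (0.53 in both libraries) but not with Dcx (-0.09 and 0.03) or Map1b (-0.05 in both).

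Outside the neuron lineage the 10 genes separated. In each library, 9 of them were at least 1.5 times higher in granule neuroblasts than in every one of 7 other classes, against 26.6% of measured genes in the mutant and 28.1% in the wild-type library. The classes were microglia (3245 mutant and 4420 wild-type cells), border macrophages (25 and 79), astrocytes (484 and 768), endothelial cells (789 and 794), mural cells (163 and 126), choroid plexus cells (151 and 425) and ependymal cells (18 and 52). Dcx, Tubb3 and Stmn4 were at or near 0 there. In no other class did Dcx exceed 0.774 CPM, Stmn4 1.11 CPM or Tubb3 5.87 CPM.

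**Figure D3:**
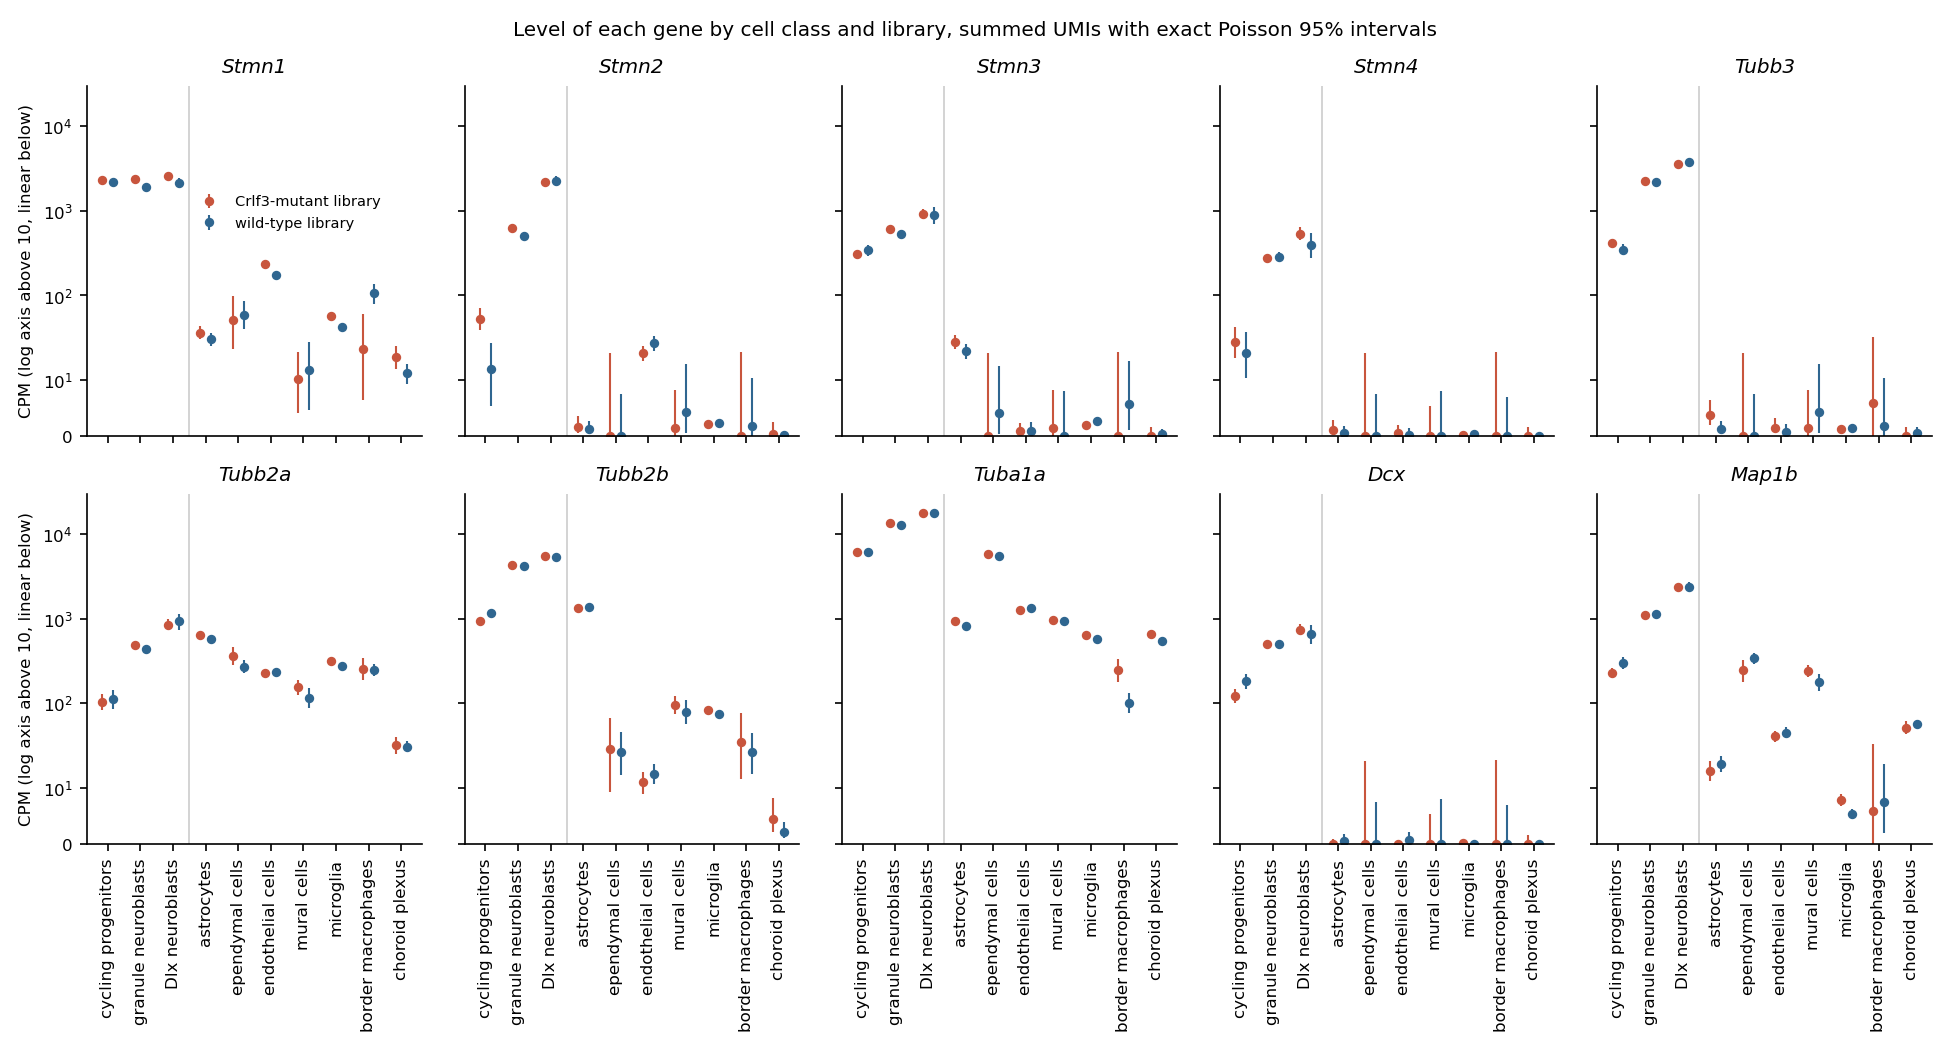
CPM of each gene in 10 classes, with the mutant library in red at the left and the wild-type library in blue at the right of each class, on an axis that is linear up to 10 CPM and logarithmic above it. Bars are exact Poisson 95% intervals. The grey line separates the neuron lineage from other classes, where Dcx, Tubb3 and Stmn4 stay under 6 CPM and Tubb2a reaches 650 CPM in mutant astrocytes.

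Tubb2a was the exception. It stood at 650 CPM (624 to 676) in mutant and 584 CPM (562 to 606) in wild-type astrocytes, above its 486 and 444 CPM in granule neuroblasts. Microglia held 317 CPM in the mutant and 276 CPM in the wild-type library, and of microglia thinned to 2000 UMIs, 41.8% and 36.2% had a UMI of it. Its near copy Tubb2b was likewise high in astrocytes, at 1350 CPM in the mutant and 1385 CPM in the wild-type library, and low in endothelial cells, at 11.9 and 14.7 CPM. Tubb2b in astrocytes was above its level in progenitors of both libraries.

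Tuba1a was detected in every class. Next to the neuron lineage its highest level was in ependymal cells, which carry motile cilia built of microtubules, at 5892 CPM in the mutant and 5512 CPM in the wild-type library. Endothelial cells held 1262 CPM and 1336 CPM. Map1b was found in ependymal cells (245 CPM in the mutant and 341 CPM in the wild-type library) and in mural cells, the pericytes and smooth muscle of vessels (242 and 177 CPM). In mural cells a minority carried it, with a UMI in 20.9% of mutant and 16.7% of wild-type cells. The 5% of all mural cells with the most UMIs of Map1b held 53.7% of them in the mutant and 63.4% in the wild-type library.

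Among non-neuronal classes, Stmn1 was highest in endothelial cells, with 233 CPM in the mutant and 176 CPM in the wild-type library. In microglia its level was higher in cells with cell cycle markers. The 14 mutant and 11 wild-type microglia with at least 2 cell cycle markers held 855 and 521 CPM, against 51.4 and 40 CPM in the other microglia. These few cells held 11.3% of the microglial Stmn1 UMIs in the mutant and 4.77% in the wild-type library, so most lay in the other microglia. Stmn2, too, was found in endothelial cells, at 20.7 CPM (92 UMIs) in the mutant and 27.1 CPM (105 UMIs) in the wild-type library. These UMIs came from 37 of 789 mutant and 37 of 794 wild-type cells, up to 11 and 12 in a cell, and 0 of 789 mutant and 1 of 794 wild-type endothelial cells had 2 or more neurogenic markers. Microglia held 2.20 and 2.44 CPM of Stmn2. Stmn3 had a low level in astrocytes, 28.5 CPM in the mutant and 22.0 CPM in the wild-type library.

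Which genes made up the tubulin RNA differed between classes. Of α-tubulin UMIs (Tuba1a, Tuba1b, Tuba1c, Tuba4a and Tuba8), Tuba1a supplied 97.2% in mutant and 97.3% in wild-type granule neuroblasts, against 68.0% in mutant and 68.7% in wild-type progenitors. The rest in progenitors was mostly Tuba1b, which supplied 2.76% in mutant and 2.58% in wild-type granule neuroblasts. In microglia Tuba1a supplied 38.9% and 38.5% and in choroid plexus cells 27.1% and 26.0%. The shares of Tuba1a and Tuba1b depend on how reads of their common sequence were assigned, so they are compared between classes only.

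Of β-tubulin UMIs (Tubb2a, Tubb2b, Tubb3, Tubb4a, Tubb4b, Tubb5 and Tubb6), Tubb3 supplied 19.7% in mutant and 19.8% in wild-type granule neuroblasts, against 6.38% in mutant and 5.18% in wild-type progenitors. Tubb2b supplied 38.2% and 38.6% in granule neuroblasts, against 14.4% and 17.3% in progenitors. Tubb5, the β-tubulin of most dividing cells, went the other way in share, at 34.4% and 34.6% in granule neuroblasts, against 63.8% and 63.9% in progenitors. Its own level hardly differed, with 3924 CPM in mutant and 3800 CPM in wild-type granule neuroblasts, against 4147 CPM in mutant and 4281 CPM in wild-type progenitors. Tubb4b, found in cilia, supplied 89.1% of the β-tubulin UMIs in mutant and 86.8% in wild-type ependymal cells, and 89.1% in mutant and 88.3% in wild-type choroid plexus cells. Summed β-tubulin was 11411 CPM in mutant and 10991 CPM in wild-type granule neuroblasts, against 6496 CPM in mutant and 6696 CPM in wild-type progenitors.

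**Figure D4:**
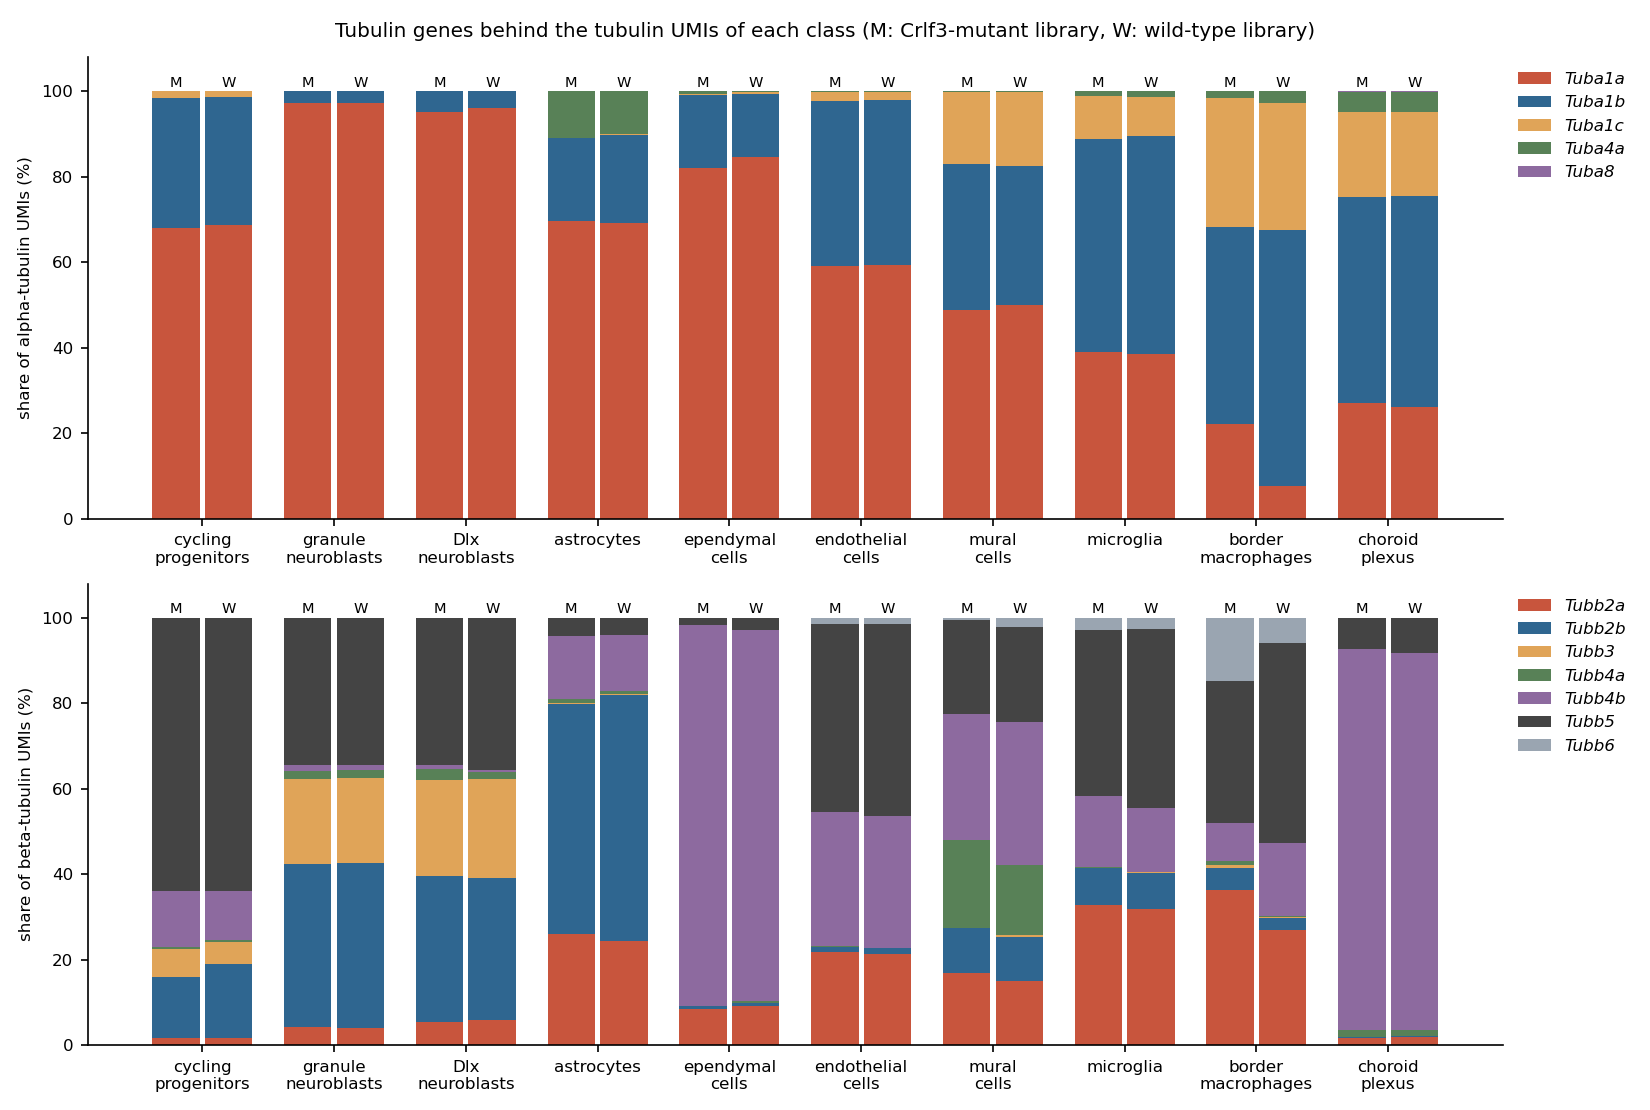
Share (percent) of each gene in the α-tubulin UMIs (upper panel) and β-tubulin UMIs (lower panel) of each class, with the mutant library (M) left of the wild-type library (W). Tuba1a supplies over 95% of α-tubulin UMIs in both neuroblast classes, against 68.0% and 68.7% in progenitors, and Tubb3 supplies at most 0.826% of β-tubulin UMIs outside the neuron lineage.

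Other microtubule genes were read from lists chosen with earlier results of these data known. Among other tubulins, 1 of 6 measured genes was higher and 4 were lower in granule neuroblasts than in progenitors, in each library (lower: 19.9% of all genes in the mutant and 18.7% in the wild-type library). The higher one was Tubb4a, with log2 ratios of 2.51 in the mutant and 2.73 in the wild-type library. Tuba1c stood at -3.34 and -3.29, Tuba1b at -2.82 and -2.95 and Tubb4b at -2.23 and -2.50. Of 15 genes of the mitotic spindle, 14 were lower and 0 higher in each library, among them the motor genes Kif11 (-4.55 and -4.18) and Kif23 (-4.44 and -4.21), Aspm (-4.44 and -4.13) and the kinase gene Aurkb (-4.37 and -3.81). Cell cycle markers chose the progenitors, so low spindle genes in granule neuroblasts follow from the gate. Granule-lineage markers were asked of granule neuroblasts and not of progenitors. The part of that demand in the higher genes of the lists below was not tested.

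Many genes of axonal transport and the growth cone were higher too. Of 10 measured transport kinesins, 6 were higher in the mutant and 7 in the wild-type library, and 0 lower, against 23.6% and 27.4% of all measured genes that were higher. Kif5a stood at 2.37 and 2.03, Kif5c at 2.19 and 2.11, Kif21b at 2.06 and 1.97 and Kif3c at 1.29 and 1.54 on the log2 scale. Of 13 genes that act with microtubules in growth cones, 10 were higher in the mutant and 9 in the wild-type library. They included the cell adhesion gene L1cam (3.02 and 2.68), Nrep (2.59 and 2.25), Gap43, a growth cone membrane protein (2.26 and 1.97), and Dpysl4, a collapsin response mediator (3.25 and 2.52).

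In the smaller lists, counts are to be read against the same 23.6% and 27.4% of all genes that were higher. Of 8 measured genes of microtubule ends, 7 were higher in the mutant and 5 in the wild-type library, where 1 was lower. Those higher in both included Mapre3 (1.28 and 1.73), Clip2 (1.23 and 0.998), Mapre2 (0.99 and 1.35) and Clasp2 (0.71 and 1.01). Among other microtubule-binding proteins, 3 of 7 measured genes were higher in the mutant and 4 of 9 in the wild-type library. The axonal protein gene Mapt stood at 0.94 and 1.28, Map2 of dendrites at 0.64 and 0.59, Map9 at 0.75 and 0.15 and Map4 at 0.38 and 0.25. Of 9 measured genes of dynein and its partners, 2 in the mutant and 5 in the wild-type library were higher and 1 was lower, with Nde1 at -2.65 and -2.71, Dynlt1b at 0.94 and 0.996, Dync1li2 at 0.61 and 0.82 and Dync1i2 at 0.48 and 0.86; the share of higher genes in the mutant library is near that of all genes. Of 3 measured tubulin-modifying genes, 2 were higher in each library, Ttll1 (1.78 and 0.90) and the acetyltransferase Atat1 (1.31 and 0.996), while Svbp stood at 0.53 and 0.31. Severing genes were split, with Fignl1 at -2.30 and -2.71, Katnal1 at 0.53 and 0.51 and Spast at 0.17 and -0.41. Tubulin folding genes lay near 0, apart from Tbce at 0.96 in the mutant and 0.42 in the wild-type library. The others of these 4 were Arl2 at -0.22 and 0.17, Tbca at -0.02 and -0.11 and Tbcb at 0.03 and -0.11.

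The likeness of profiles was read as Pearson's r of log2(CPM + 10) over 22 levels, 11 classes in each library with early and late granule neuroblasts apart, among 9772 genes. The classes share their libraries and the gates. Dcx and Tubb3 had nearly one profile (r = 0.998), and the genes closest to them outside the 10 were Crmp1, Srrm4 and Add2 for both. Stmn4 was closest to Mgat5b (0.994), Zfp57 and Svop, and Stmn2 to Mgat5b (0.982), Islr2 and Ina. Stmn3 was closest to Elavl3 (0.997), itself a neurogenic marker of the gate, then Bcl11a and Sbk1, and Stmn1 to Myh10 (0.968), Mycn and Oga. Tubb2b was closest to Mapt (0.965), Rundc3a and Pigx, Tuba1a to Lsm14b (0.963), Sobp and Tulp4, and Map1b to 2610307P16Rik (0.964), Sobp and Ssbp3. Tubb2a stood apart, with r of 0.32 to 0.64 to the other 9 genes and a closest gene, Tet2, at 0.877, followed by Spag9 and Gnaq.

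The study compares mutant with wild-type hippocampi, and in neuroblasts the libraries were close. None of the 10 genes was 1.5 times apart in granule neuroblasts (4.01% of all genes were). Stmn1 stood at 2407 CPM in the mutant and 1938 CPM in the wild-type library, a log2 ratio of 0.31 (0.22 to 0.40). Stmn2 stood at 635 CPM and 505 CPM, 0.32 (0.15 to 0.50), and Stmn3 at 609 CPM and 534 CPM, 0.19 (0.01 to 0.36). For the 4 tubulins, Stmn4, Dcx and Map1b the ratios ran between -0.07 and 0.13. The interval of Dcx, -0.19 to 0.18, and that of Tubb3, -0.05 to 0.13, lie within 1.5 times in both directions. Over the alternatives Dcx ran from -0.30 (-0.59 to -0.01, Y-positive, Xist-negative cells) to 0.23 and Stmn4 from -0.36 to 0.51. Xist-positive, Y-negative granule neuroblasts numbered 45 in the mutant and 44 in the wild-type library, and Y-positive, Xist-negative ones 58 and 31. Among progenitors the numbers were 14 and 15, and 32 and 18. Ratios over all cells are thus not matched for sex, and Dcx lies on chromosome X. Split by stage, 0 of 10 genes were 1.5 times apart in early cells (12.3% of genes were) and 0 of 10 in late cells (8.55%). In Dlx neuroblasts, too, 0 of 10 genes were 1.5 times apart (19.2% of genes were), with ratios of -0.12 to 0.44. These cells held 233608 UMIs in the mutant and 91258 in the wild-type library, so the UMI filter fell at a different CPM in each. That share of genes therefore cannot serve as a background for the 10 genes. Of the other microtubule lists, 1 gene was past 1.5 times in granule neuroblasts, Map1a, at 35.4 CPM in the mutant and 53.3 CPM in the wild-type library. The largest of the rest were Tubb4b (0.42), Map9 (0.42), Ndel1 (-0.41), Dynlt1b (0.37), Dpysl2 (-0.36) and Kif5a (0.34).

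In cycling progenitors 1 of 9 measured genes was 1.5 times apart (9.07% of genes were). This was Stmn2, at 53.0 CPM in the mutant and 13.3 CPM in the wild-type library, a log2 ratio of 1.43 (0.73 to 2.14). It rests on few cells, with a UMI in 15.7% of mutant and 10.3% of wild-type progenitors. Without progenitors of more than 1 Dlx-lineage marker it was 0.44 (-0.39 to 1.26), and without the 5% of cells highest in the 10 genes 0.61 (-0.18 to 1.40), both settings chosen after the data were seen. With classes from Leiden clusters it was 0.42. Dcx was lower in the mutant progenitors, at 124 CPM against 185 CPM in wild type, a log2 ratio of -0.54 (-0.92 to -0.17). Map1b (-0.38, interval -0.67 to -0.08) and Tubb2b (-0.31, -0.46 to -0.16) were also lower by under 1.5 times. The progenitors of the libraries also differed in markers. Median cell cycle UMIs per cell were 87 in the mutant and 59 in the wild-type library, and median granule-lineage UMIs 4 and 6. The median log2 ratio of spindle genes, mutant over wild type, was 0.292, against 0.029 for all measured genes. The part of such a difference in stage in these ratios was not tested. In the 14 mutant and 15 wild-type progenitors that were Xist-positive and Y-negative, the ratio of Dcx was -0.92, while Tubb2b (0.24) and Map1b (0.33) changed sign. Tubb3, at 0.25 (0.00 to 0.50), was -0.56 (-0.88 to -0.24) without progenitors of more than 1 Dlx-lineage marker. With cells thinned to 2000 UMIs it was 0.96 (0.24 to 1.68). The ratio of Dcx was below 0 under all 14 alternatives, from -0.92 to -0.34. Its interval held 0 with Leiden clusters (-0.763 to 0.081) and with doubled thresholds (-1.057 to 0.015). The ratios of Stmn3 (-0.343 to -0.022) and Tubb2a (-0.492 to -0.001) also stayed below 0. Those of Stmn2, Tubb3, Tubb2b and Map1b changed sign under at least 1 of the alternatives.

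**Figure D5:**
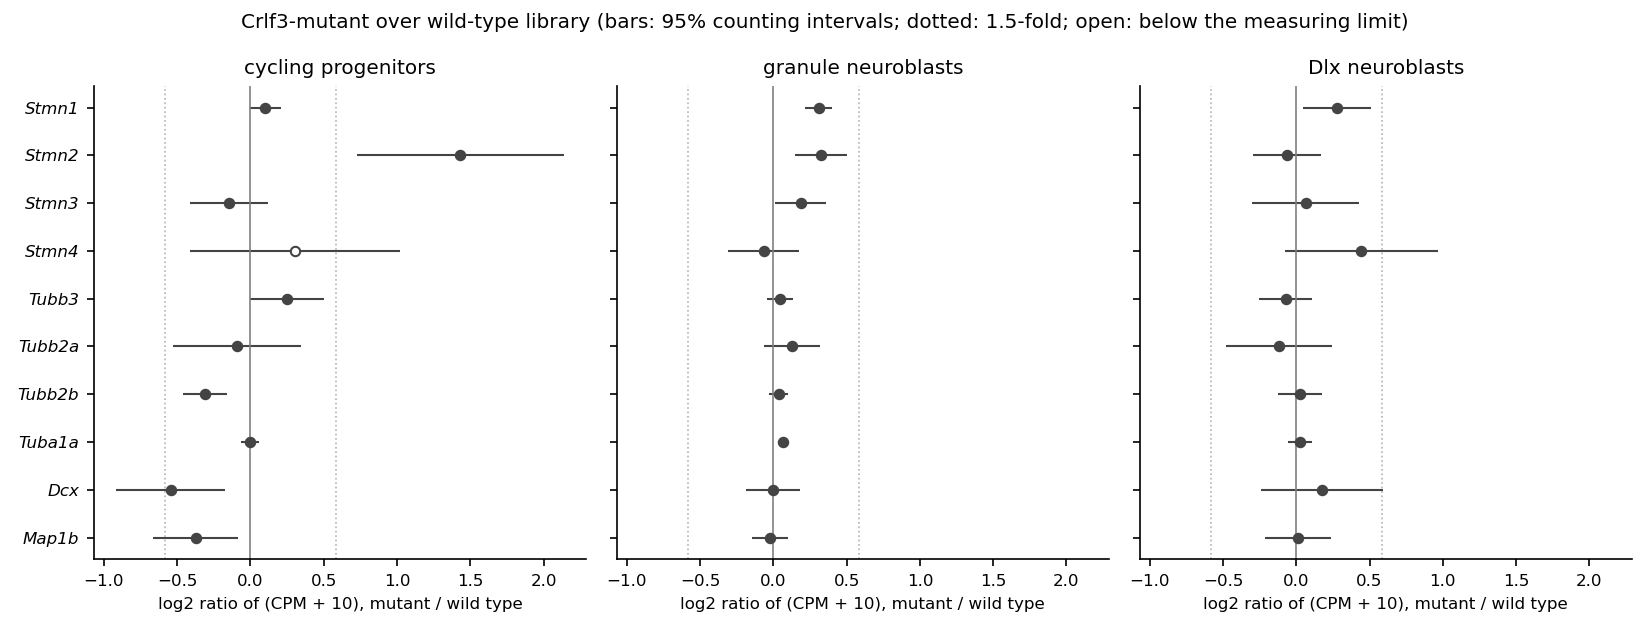
Log2 ratio of (CPM + 10) of the mutant over the wild-type library for each gene in 3 classes, with 95% counting intervals. Filled points are measured genes and the open point, Stmn4 in progenitors, is below 50 CPM in both libraries. Only Stmn2 in progenitors, at 1.43, lies past the dotted lines of 1.5 times.

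Beyond the neuron lineage, Stmn1 was lower in mutant border macrophages, at -1.79 (-2.84 to -0.74) on 4 mutant and 56 wild-type UMIs. In microglia and endothelial cells Stmn1 was higher in the mutant library, by under 1.5 times. It stood at 57.5 CPM in mutant and 41.8 CPM in wild-type microglia, a log2 ratio of 0.38 (0.29 to 0.47), and at 233 CPM in mutant and 176 CPM in wild-type endothelial cells, 0.38 (0.25 to 0.51). In Dlx neuroblasts the ratio was 0.28 (0.05 to 0.51) and in progenitors 0.10 (0.00 to 0.21). In progenitors the sign turned with the cells counted, at -0.06 among Y-positive, Xist-negative cells, -0.05 without cells of more than 1 Dlx-lineage marker and 0.43 among Xist-positive, Y-negative cells. With each cell thinned to 2000 UMIs the ratio of Stmn1 was 0.43 in microglia, 0.53 in endothelial cells and 0.30 in granule neuroblasts, close to or above the value without thinning. With doubled marker thresholds it was 0.38 in microglia and 0.37 in endothelial cells. In granule neuroblasts it then fell to 0.19 (0.06 to 0.32), the lowest value over the alternatives. Among Xist-positive, Y-negative cells the ratio was 0.31 in microglia, 0.59 in endothelial cells and 0.26 in granule neuroblasts. Among Y-positive, Xist-negative cells the values were 0.48 in microglia, 0.20 (-0.06 to 0.47) in endothelial cells and 0.33 in granule neuroblasts.

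In microglia 0 of 4 measured genes and in endothelial cells 0 of 3 were 1.5 times apart (0.186% and 0.0845% of genes were). The same held for 0 of 3 in astrocytes (0.277%), 0 of 4 in mural cells (8.51%), 0 of 2 in choroid plexus cells (0.878%) and 0 of 3 in ependymal cells (24% of genes). These small classes moved widely with the cells counted. Map1b in mural cells ran from -0.22 to 2.28 on the log2 scale over the alternatives, Tubb2b there from -0.64 to 0.89, and Map1b in ependymal cells from -1.50 to 0.56. Tuba1a in choroid plexus cells reached 5.44 among Xist-positive, Y-negative cells, of which there was 1 in the mutant and 4 in the wild-type library. Border macrophages held 25 mutant and 79 wild-type cells, and there 2 of 3 genes were past it (21.3% of genes were). UMI totals were unequal in border macrophages (170270 mutant and 528645 wild type) and in ependymal cells (175336 and 486925). The UMI filter thus fell at a different CPM in each library, and the shares of genes in these 2 classes cannot serve as a background. Tuba1a stood at 247 CPM (42 UMIs) in mutant and 102 CPM (54 UMIs) in wild-type border macrophages. Stmn1 stood at 23.5 CPM (4 UMIs) and 106 CPM (56 UMIs), and 2 wild-type cells with cell cycle markers held 29 of those 56. The choroid plexus transcript Ttr, a sign of free RNA, differed between the libraries, at 19.9 CPM in mutant and 111 CPM in wild-type granule neuroblasts. Dcx, Tubb3 and Stmn4 were at or near 0 in every non-neuronal class of both libraries. The part of free RNA in the low levels of the other genes was not tested.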

How the data were processed

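For each library the files give raw UMI counts, 1 value per gene and droplet barcode, as deposited. Per the labels' protocols and the submitters' processing notes, reads went through Cell Ranger 6.1.1 with an mm10 reference, and Partek is named with no purpose given. How shared reads and strand were counted is not given in the sources used here. Barcodes of at least 500 genes, 1000 UMIs and no more than 10% of UMIs from mitochondria entered (5353 mutant, 7246 wild type). Scrublet in scanpy 1.11.5 (expected rate 0.06) called 77 mutant and 148 wild-type doublets, which were removed; 16 mutant and 15 wild-type cells with both neurogenic and microglia markers entered no class. The matrices summed to 43103469 UMIs in the mutant and 51328178 in the wild-type library.

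The 10 genes and the lists were chosen with earlier results of these data known, and the marker thresholds after the marker counts per cell were seen. Cells at a threshold or 1 below it numbered 21 and 14 mutant and 23 and 15 wild-type cells for the granule markers. Sums of counts carry exact Poisson and shares exact Clopper-Pearson 95% intervals; ratios carry a normal interval from Poisson errors. Ratios were computed for every gene, and the ratios, intervals and thinning were tested on simulated data. All 10 genes are named; of each list, genes are named from the up to 4 measured ones with the largest absolute ratio between stages (mean of both libraries) or genotypes, and per gene the 3 most similar profiles. Sequences and positions come from GENCODE M21 (GRCm38, the build of mm10), and alignments were made with Biopython 1.88. Alternatives were Leiden clusters made without the 10 genes (leidenalg 0.10.2, 2000 variable genes, 30 components, resolution 2 and then 1 within the lineage), doubled marker thresholds, a stricter cell filter (1500 genes, 3000 UMIs, 5% mitochondrial), doublets kept, the mean of per-cell CPM, cells thinned to 2000 UMIs, median-of-ratios scaling, a pseudocount of 1 CPM, no filter on low values, cells of 50 microglia UMIs left out, and cells split by Xist and Y transcripts. Some sequences are not reported here.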

Additional observations from a re-analysis of the deposited data

Results flagged for a closer look

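For 3 genes the ratio between stages lay on opposite sides of 0 in the 2 libraries, in part within counting error. Whether the libraries differ was not tested, since there is 1 library per genotype. For Stmn1, granule neuroblasts over progenitors, the log2 ratio was 0.042 (-0.041 to 0.126) in the mutant and -0.167 (-0.278 to -0.056) in the wild-type library. For Stmn3, late over early granule neuroblasts, it was 0.291 (0.056 to 0.525) in the mutant and -0.191 (-0.472 to 0.09) in the wild-type library. For Dcx, late over early granule neuroblasts, it was 0.283 (0.027 to 0.538) in the mutant and -0.001 (-0.291 to 0.29), no difference, in the wild-type library. All 6 values lie under 1.5 times.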

How the results depend on the processing

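No paired analysis was possible because each genotype is 1 pooled library. The number of the 10 genes at least 1.5 times higher in granule neuroblasts than in progenitors was 9 in the mutant library under all 14 alternatives. In the wild-type library it was 8 or 9, with 8 under the doubled thresholds, where Stmn3 stood at 0.21, under median-of-ratios scaling, in Y-positive, Xist-negative cells, and without progenitors of more than 1 Dlx-lineage marker. This last setting and that without the 5% of cells highest in the 10 genes were chosen after seeing the data. The count was 9 against every non-neuronal class, and 0 in granule neuroblasts of the mutant against the wild type, under all 14 alternatives. Keeping doublets, dropping the filter on low values and leaving out cells of 50 microglia UMIs moved 0 of 68 values, and removing progenitors leaves granule neuroblasts as they were, so these settings say little. Of the 68 values, 41 moved in Xist-positive, Y-negative cells and 32 in Y-positive, Xist-negative cells. Doubled thresholds moved 18, thinning to 2000 UMIs 18 and Leiden clusters 17. Of 140 ratios of granule neuroblasts over progenitors in each library, 41 moved in the mutant and 27 in the wild type. The count in progenitors, 1 in the mutant against the wild type, was 0 with Leiden clusters, 2 with doubled thresholds (Stmn2 at 1.57 and Tubb3 at 0.65) and 2 when CPM was averaged over cells (Stmn2 at 1.54 and Dcx at -0.61). Where it stayed 1, the gene was Dcx in place of Stmn2 without progenitors of more than 1 Dlx-lineage marker (-0.66), without the 5% of cells highest in the 10 genes (-0.55) and in Xist-positive, Y-negative cells (-0.92), and Tubb3 after thinning (0.96). The ratio of Stmn2 in progenitors changed sign in Xist-positive, Y-negative cells, -0.432 (14 mutant and 15 wild-type cells); the cause was not tested. Genes of the 10 with a UMI in at least 50% of granule neuroblasts were 9 in both libraries after thinning to 2000 UMIs and 10 unthinned or thinned to 4000 UMIs. Few cells limit the progenitors and Dlx neuroblasts, and free RNA limits levels of a few CPM.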
